A study of Triticum aestivum with 14 samples.

Results

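The comparison set leaf against axillary bud of unvernalized winter wheat, using the accessible chromatin regions (ACRs) that ATAC-seq gave in each tissue. ATAC-seq uses the transposase Tn5 to place sequencing adapters into DNA that is not tightly packed, so an ACR is a stretch of chromatin where insertions were dense. An ACR that overlapped an ACR of the other list by at least 1 bp was counted as common, and every remaining ACR was counted as leaf-side or bud-side. The leaf list held 128914 ACRs and the axillary bud list 175599, together 304513 of the 892288 ACRs in the 6 lists of the series.

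Plants of the cultivar AK58 (Triticum aestivum, with A, B and D sub-genomes) were sampled at 2 weeks of growth, under 16 h of light at 22°C and 8 h of darkness at 19°C. Leaf was taken directly from the plant and axillary bud was dissected under a microscope. Neither group had been vernalized, that is, exposed to the long cold that a winter cultivar needs before flowering. The labels gave 2 samples per tissue but 1 list, so there was no replicate spread, no p-value is given, and each difference is a difference between 2 lists. Shares carry 95% Wilson intervals, which take in the counting error alone, and ACRs close to each other are not independent. The lists hold no read counts. The read statistics of the study give more mapped reads for axillary bud than for leaf, so tissue and sequencing depth cannot be told apart in any number or width below. The lists also differed in how the ends of their ACRs fell, described below, and tissue cannot be told apart from that difference either. The labels of the tissues could not be checked against marker genes, because no annotation of the genome build of the lists (IWGSC RefSeq v1.0) was used here.

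In plant genomes most of the DNA is packed repeat sequence, and open chromatin is concentrated at gene promoters and at distal elements to which transcription factors bind. The leaf is a largely differentiated, photosynthetic organ. The axillary bud sits in the leaf axil, holds a meristem and young leaf primordia, and can grow out into a tiller.

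Leaf ACRs were mostly common to both tissues, whereas axillary bud ACRs divided almost evenly. Of the leaf ACRs, 101177 were common (78.5%, 78.3% to 78.7%) and 27737 were leaf-side, which is 21.5% of the list (21.3% to 21.7%). Of the axillary bud ACRs, 85997 were common (48.97%, 48.7% to 49.2%) and 89602 were bud-side, which is 51.0% of the list (50.8% to 51.3%). There were thus 3.23 bud-side ACRs for each leaf-side ACR. Joined where they overlapped, the ACRs of both lists made 201990 regions, of which 13.7% were leaf-side, 44.4% bud-side and 41.9% common.

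Whether the excess of bud-side ACRs depends on list size could not be told from lists cut to equal size. The axillary bud list was cut to its widest 128914 ACRs, the size of the leaf list. This left 35748 leaf-side and 51508 bud-side ACRs. Between lists of equal size, such an excess equals that of common leaf ACRs (72.3%) over common axillary bud ACRs (60.04%). It is thus set by how often several ACRs of 1 list overlap the same ACR of the other. In the full lists, 12546 common regions held 2 or more leaf ACRs within 1 axillary bud ACR, and 937 held the reverse. The cut also left no axillary bud ACR under 350 bp, with no such limit on leaf ACRs. Under a reciprocal overlap of at least 50%, 32.2% of leaf ACRs and 23.7% of axillary bud ACRs were common. Few ACRs sat near the limit of 1 bp. Of 102523 overlapping pairs, 101 shared at most 10 bp, and 72 leaf-side and 55 bud-side ACRs lay within 10 bp of an ACR of the other tissue. The median shared length was 444 bp.

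The split differed little between chromosomes. The leaf-side share of the leaf list was lowest on 4D (19.0%, 18.0% to 20.1%) and highest on 7D (23.5%, 22.5% to 24.5%). The bud-side share of the axillary bud list was lowest on 3A (49.2%, 48.2% to 50.2%) and highest on 7D as well (53.5%, 52.5% to 54.5%). Leaf had fewer ACRs than axillary bud on each of the 21 chromosomes, with a ratio between 0.692 on 7A and 0.773 on 4B. Chromosome 4B also had the fewest bud-side ACRs per leaf-side ACR (2.78) and 7A the most (3.62). By homoeologous group, the leaf-side share ran between 20.6% in group 4 and 22.3% in group 7, and the bud-side share between 50.1% in group 4 and 53.0% in group 7. Group 7 thus had the highest tissue-side share in both tissues, and group 4 the lowest.

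**Figure D1:**
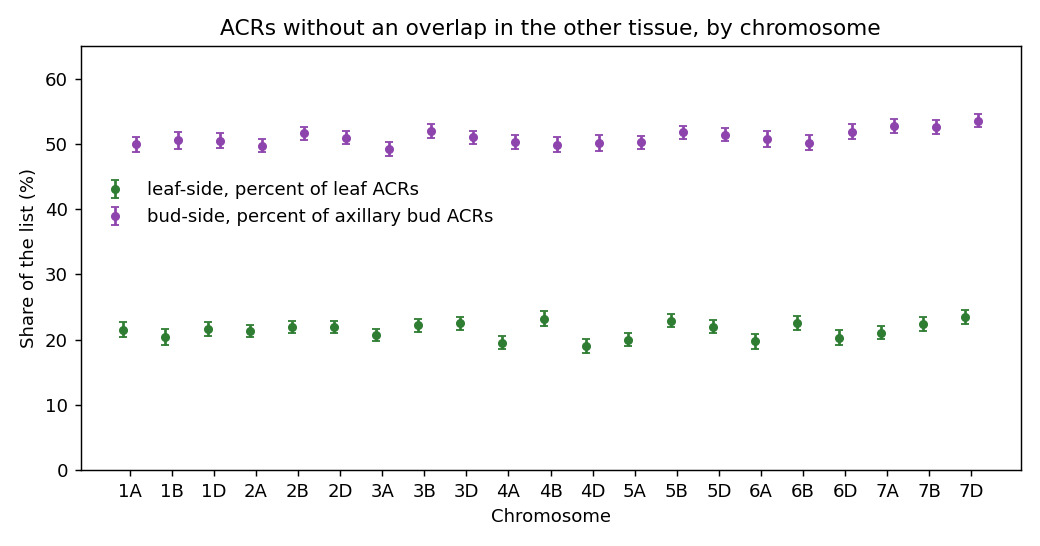
Share of leaf ACRs that were leaf-side (green) and of axillary bud ACRs that were bud-side (purple) on each chromosome, with 95% Wilson intervals as bars. Leaf-side shares stay between 19.0% and 23.5% and bud-side shares between 49.2% and 53.5%, so the ranges of the tissues do not touch.

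Leaf-side and bud-side ACRs were narrower than common ACRs of the same list. Leaf-side ACRs had a median width of 324 bp (quartiles 250 and 450 bp) and common ACRs in leaf 470 bp (322 and 837 bp). Bud-side ACRs had a median width of 450 bp (250 and 650 bp) and common ACRs in axillary bud 1050 bp (650 and 1750 bp). Widths of 1000 bp or more were found in 3.87% of leaf-side and 12.8% of bud-side ACRs, against 17.9% of common ACRs in leaf and 54.2% in axillary bud. Leaf-side ACRs covered 11.4 Mb, 14.2% of the length of the leaf list. Bud-side ACRs covered 50.5 Mb, 29.8% of the length of the axillary bud list. By covered length, therefore, both lists were mainly made of common ACRs.

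The share of ACRs with a partner in the other tissue was higher at larger widths in both lists. Among the narrowest leaf ACRs, up to 250 bp, 63.5% (62.9% to 64.0%) were common, and among those above 2000 bp 96.3% (95.6% to 96.8%). The same widths gave 15.3% (14.9% to 15.7%) and 92.4% (92.0% to 92.8%) in axillary bud. At each of the 8 width steps examined the common share was higher in leaf than in axillary bud, and the tissues were closest at the widest step. A wide ACR is hit by a partner more easily for its length alone, so this relation is a description of the lists.

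**Figure D2:**
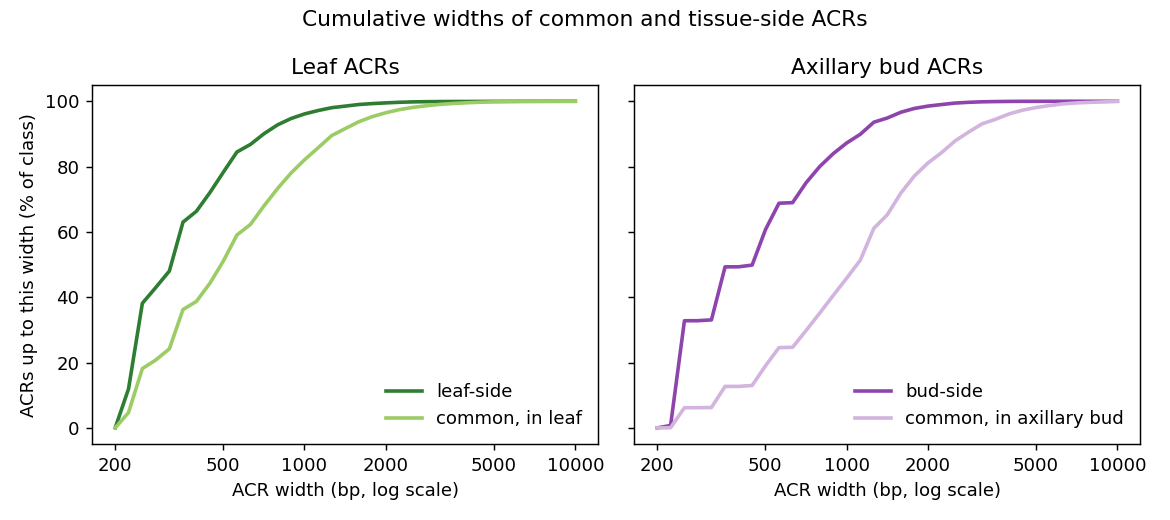
Cumulative share of ACRs up to a given width (log scale, widths above 10000 bp counted at the end of the axis) for leaf (left) and axillary bud (right). In each tissue the curve of the tissue-side class lies above that of the common class, with medians of 324 and 470 bp in leaf and of 450 and 1050 bp in axillary bud.

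Common regions were wider in axillary bud. The 84651 common regions had a median covered width of 550 bp in leaf and 1050 bp in axillary bud. The median ratio of leaf over axillary bud width within a region was 0.60 (interval of the median 0.60 to 0.603), with quartiles of 0.385 and 0.861. Axillary bud was the wider tissue in 70796 regions (83.6%), leaf in 11633 (13.7%), and 2222 had equal widths. The leaf ACR was at most 0.5 times the axillary bud width in 38.5% of regions and at least 2 times that width in 2.45%. In total the leaf ACRs of common regions covered 68.5 Mb and the axillary bud ACRs 118.7 Mb. The median ratio was below 1 on all 21 chromosomes, between 0.586 on 4D and 0.626 on 6B.

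Most common regions, 70860 of 84651 (83.7%), held exactly 1 ACR of each list. In these pairs the median ratio was 0.609 (0.604 to 0.613), with median widths of 454 bp in leaf and 950 bp in axillary bud. The leaf ACR lay wholly inside the axillary bud ACR in 63.6% of pairs and the reverse held in 7.36%. The ends were staggered in 29.0%, and 42 pairs had identical ends. The median offset of the centres was 116 bp. The axillary bud ACR reached further by a median of 126 bp on the left and 126 bp on the right, so over all pairs neither side was favoured. Centres lay within 100 bp of each other in 45.5% of pairs. A further 12546 regions (14.8%) held 2 or more leaf ACRs within 1 axillary bud ACR, up to 13 of them, whereas 937 (1.11%) held 1 leaf ACR over 2 or more axillary bud ACRs. In regions with several leaf ACRs the covered width was 1220 bp in leaf and 2450 bp in axillary bud.

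The ratio changed along the chromosome. It was lowest at the ends, 0.573 in the first 10% and 0.566 in the last 10% of the chromosome length, and highest just past the middle, at 0.671 between 50% and 60%. The leaf widths moved little along the way (medians between 528 and 612.5 bp). The axillary bud widths ran between 950 and 1250 bp, and the widest were in the last 10%. The sub-genomes had close ratios of 0.598 on A, 0.612 on B and 0.60 on D.

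**Figure D3:**
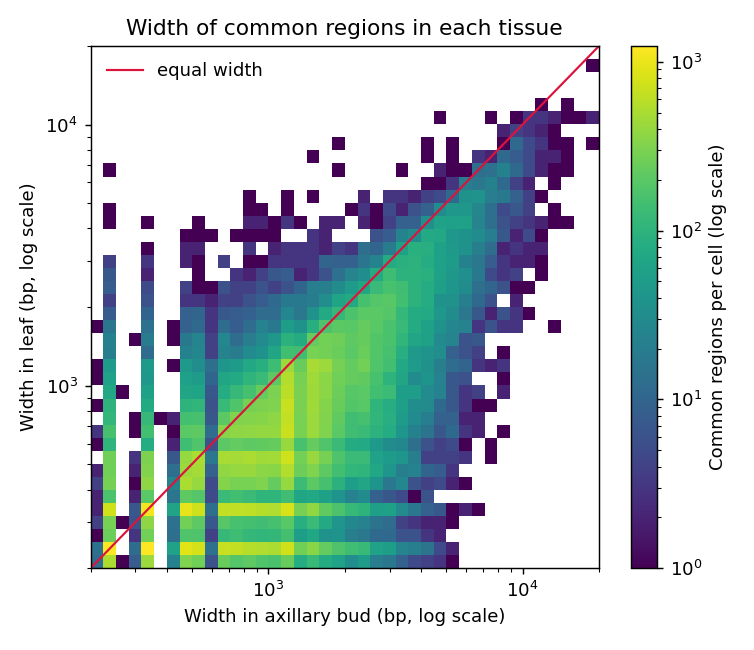
Covered width of each common region in axillary bud (horizontal) and leaf (vertical), both on log scales, coloured by the number of regions per cell, with a line at equal width. Most regions lie below the line (83.6% wider in axillary bud). The vertical stripes come from axillary bud widths in steps of 100 bp.

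How the ends of ACRs fell differed between the lists and moved with these widths. The authors built ACRs from 150 bp bins in steps of 100 bp, and 31.0% of leaf-side and 94.1% of bud-side ACRs had a width that such bins can give without trimming. The shares were 34.7% for common ACRs in leaf and 95.1% in axillary bud, so this property followed the list and not the class. Close neighbours were also unequal, since 6.17% of common leaf ACRs lay within 200 bp of another common leaf ACR, against 0.676% in axillary bud. The merging of neighbours up to 200 bp apart that the authors describe would by itself leave none so close. The part of these properties in the widths was not tested.

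The pairs with the most unequal widths showed how far the tissues could part within a single region (coordinates on IWGSC RefSeq v1.0). The highest ratio of leaf over axillary bud was 28.1 at 1D:408237622-408244638, where the leaf ACR spanned 7017 bp and the axillary bud ACR 250 bp. The next were 1A:504239119-504244138, with 5020 bp in leaf and 250 bp in axillary bud, and 4B:639121398-639125826, with 4429 bp and again 250 bp. The remaining lists differed between these sites. At the 1D and 1A sites vernalized axillary bud covered 5954 and 4541 bp and shoot apex 3730 and 3433 bp. At the 4B site vernalized leaf covered the same 4429 bp, vernalized axillary bud 450 bp, and neither shoot apex list had an ACR.

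The lowest ratios were 0.0408 at 5A:513840400-513845349 (202 bp in leaf, 4950 bp in axillary bud), 0.0411 at 2D:27757652-27763001 (220 and 5350 bp) and 0.0426 at 2D:546427672-546433021 (228 and 5350 bp). Vernalized leaf covered 0, 0 and 209 bp of these sites. Vernalized axillary bud covered 4825, 2146 and 5250 bp, and shoot apex 2179, 864 and 3813 bp. The narrow leaf ACR and the wide axillary bud ACR were fixed by the choice of these sites, while in the lists not used for it vernalized leaf covered the least at each site.

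Sub-genome shares of the classes were close to each other. Leaf-side ACRs lay 32.1% on A (31.6% to 32.7%), 33.3% on B (32.8% to 33.9%) and 34.5% on D (33.97% to 35.1%). Bud-side ACRs lay 33.2% on A (32.9% to 33.5%), 32.5% on B (32.2% to 32.9%) and 34.2% on D (33.9% to 34.6%). Common ACRs in leaf had 33.98% on A (33.7% to 34.3%), 31.9% on B (31.6% to 32.2%) and 34.2% on D (33.9% to 34.4%). Leaf-side ACRs therefore had a lower share on A and a higher share on B than common ACRs in leaf, with intervals that did not overlap. Common ACRs in axillary bud lay 34.1% on A (33.7% to 34.4%) and 32.2% on B (31.9% to 32.5%). The bud-side share was thus lower than theirs on A too, while on B the intervals overlapped. Counted within the leaf list, 20.6% of A, 22.3% of B and 21.7% of D ACRs were leaf-side. Among the 7 homoeologous groups, the leaf-side share was higher on the B than on the A chromosome in 6 and higher on the D than on the A chromosome in 6. For the bud-side share these counts were 4 and 6. The bud-side share of the axillary bud list was 50.4% on A, 51.3% on B and 51.4% on D.

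Per Mb of the length spanned by ACRs, both classes were densest on D. Leaf-side ACRs numbered 1.81 per Mb on A, 1.78 on B and 2.42 on D. Bud-side ACRs numbered 6.03 per Mb on A, 5.63 on B and 7.77 on D. The order of D over A over B was the same for common ACRs in leaf, with 6.97, 6.22 and 8.75 per Mb on A, B and D.

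Tissue-side ACRs lay further out on the chromosomes than common ones, the leaf-side more so than the bud-side. The outer 10% at each end, 20% of the length in all, held 40.1% of leaf-side ACRs (39.6% to 40.7%) and 36.3% of bud-side ACRs (36.0% to 36.6%). It held 34.9% of common ACRs in leaf (34.6% to 35.2%) and 34.0% in axillary bud (33.7% to 34.3%). The leaf-side share in the outer part was above that of common leaf ACRs on all 21 chromosomes, and above the bud-side share on all but 1D. The bud-side share was above that of common axillary bud ACRs on 17 chromosomes, and not on 4B, 4D, 6B and 7D. By covered length the bud-side share (37.46%) and the share of common ACRs in axillary bud (37.44%) were nearly equal.

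The outward position was found at every width. Among leaf ACRs up to 250 bp, 37.6% of leaf-side and 35.7% of common ACRs lay in the outer part, and among those above 2000 bp 55.5% and 41.3% did. In axillary bud the narrowest ACRs gave 36.6% of bud-side and 35.2% of common ACRs, and the widest 48.7% and 41.6%. In both lists the difference between classes was larger at the widest step than at the narrowest.

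Along 20 equal bins, the leaf-side class had a further rise in the interior that the bud-side class did not have. Leaf-side ACRs made up 26.4% of leaf ACRs in the first bin and 24.9% in the last, and 27.3% in the bin between 40% and 45% of the chromosome length. The lowest value was 17.36%, between 80% and 85%. Bud-side ACRs made up 53.4% of axillary bud ACRs in the first bin and 53.0% in the last, and in the interior bin they had their lowest share, 44.9%. The bin between 40% and 45% held 4.02% of all leaf-side ACRs and 2.36% of all bud-side ACRs. This bin was singled out after its values were seen.

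**Figure D4:**
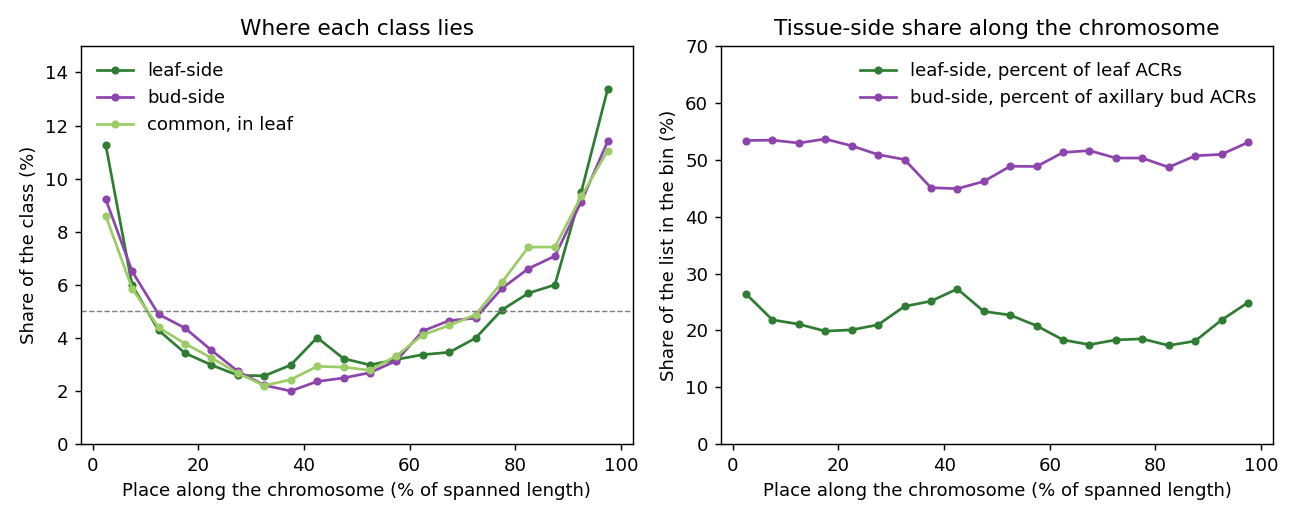
Left, share of leaf-side, bud-side and common leaf ACRs in 20 equal bins along the chromosome, pooled over the 21 chromosomes, with a dashed line at the 5% that an even spread would give. Right, share of each list that was tissue-side in the same bins. Leaf-side ACRs reach 27.3% of leaf ACRs between 40% and 45% of the length, where bud-side ACRs make up 44.9% of axillary bud ACRs.

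Leaf-side ACRs tended to follow each other along the chromosome. With the regions of both lists in chromosome order, 31.4% of leaf-side regions (30.8% to 31.9%) were followed by another leaf-side region, against a leaf-side share of 13.7% over all regions, which is 2.29 times. For bud-side regions the share followed by a bud-side region was 50.3% (49.97% to 50.6%) against 44.4%, or 1.13 times. For common regions it was 44.5% (44.2% to 44.9%) against 41.9%, or 1.06 times. A class with a larger share has less room above that share, so these multiples are not compared between classes. With the axillary bud list at leaf list size the multiples were 1.74 for leaf-side and 1.21 for bud-side regions. Leaf-side regions were followed by a bud-side region in 29.9% of cases, below the bud-side share of 44.4%. The leaf-side value exceeded the leaf-side share of the same chromosome on all 21 chromosomes and ranged from 26.7% on 1B to 33.8% on 3D. It fell below that share under a reciprocal overlap of at least 50% (31.9% against 33.2%), where leaf and axillary bud ACRs that overlap unequally count as separate neighbours of opposite class.

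Both classes held lone ACRs as well as runs. Of the leaf-side regions, 50.8% had no leaf-side region directly beside them and 26.8% stood in runs of 3 or more. Of the bud-side regions, 25.4% were alone and 50.8% stood in runs of 3 or more. There were 33 leaf-side runs and 135 bud-side runs of at least 10 regions, and the longest held 30 leaf-side and 24 bud-side regions. Of the common regions, 31.1% were alone and 42.1% stood in runs of 3 or more, with 45 runs of at least 10. Leaf-side regions were 13.7% of all regions, bud-side 44.4% and common 41.9%. Runs and distances within a class depend on these shares, so they are not compared between classes. In distance, leaf-side ACRs lay a median of 24975 bp from the nearest leaf-side ACR and 4683 bp from the nearest axillary bud ACR. Bud-side ACRs lay 4362 bp from the nearest bud-side ACR and 5462 bp from the nearest leaf ACR. Within 1000 bp of an ACR of the other tissue were 23.9% of leaf-side and 16.7% of bud-side ACRs, and within 10000 bp 62.2% and 61.9%.

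In 14074 windows of 1 Mb, leaf-side ACRs averaged 1.97 per window and bud-side ACRs 6.37. No leaf-side ACR was found in 34.98% of windows and no bud-side ACR in 10.6%. The 10% of windows with the most ACRs of a class held 42.3% of leaf-side and 30.9% of bud-side ACRs. The variance over the mean was 4.00 for leaf-side and 5.60 for bud-side ACRs, and 3.73 for leaf-side without the single fullest window. Across windows, leaf-side counts had a Pearson r of 0.433 with bud-side and of 0.493 with common counts, whereas bud-side and common counts had an r of 0.743. Common leaf ACRs averaged 7.19 per window, with 9.39% of windows empty, 32.4% of ACRs in the fullest 10% and a variance over the mean of 6.97. All these measures depend on the mean count per window, so they are not compared between classes. They are descriptions over windows of 1 genome, in which base composition and repeat content were not measured.

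Windows in which leaf-side ACRs prevailed were few, and their place differed. Of 4576 windows with at least 10 tissue-side ACRs, leaf-side ACRs were at least 2 times as many as bud-side ACRs in 117 (2.56%), and the reverse held in 3530 (77.1%). The 117 windows were spread over 21 chromosomes and held 1406 leaf-side and 402 bud-side ACRs. On the B sub-genome lay 58 of them (49.6%, against 33.0% of the 4576), and 27 lay on D (23.1%, against 35.9%). The outer part of the chromosomes held 36 (30.8%, against 42.1%), and the middle between 40% and 60% of the length held 29 (24.8%, against 6.75%). The limits of this rule and the middle part were chosen after values had been seen.

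A single window of chromosome 5B stood apart. The window 5B:691000001-692000000 held 91 leaf-side ACRs and no bud-side ACR, with 7 common ACRs in each list. Of the 91, 86 lay in the first 500 kb, and their median width was 550 bp, against 324 bp for the class. The 10 windows around it held at most 7 leaf-side ACRs each, with a median of 5. Vernalized leaf overlapped 69 of the 91 and shoot apex 56, whereas vernalized axillary bud overlapped 33 and vernalized shoot apex 6. Most of these ACRs were thus found in shoot apex too, where 14.2% of all leaf-side ACRs were overlapped. The 2 longest leaf-side runs, of 30 and 28 regions, both lay in it (5B:691174543-691392653 and 5B:691415140-691479897).

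The next windows by excess of leaf-side over bud-side ACRs were 6B:292000001-293000000, with 21 leaf-side and 1 bud-side, and 4A:738000001-739000000, with 34 and 15. The 6B window lay at 40.6% of the chromosome length and had 28 leaf and 8 axillary bud ACRs in all, and 28 in vernalized leaf. The third longest leaf-side run, of 28 regions, covered 311 kb at 2D:639713937-640025059. Vernalized leaf overlapped 15 of its regions, shoot apex 3, vernalized shoot apex 2 and vernalized axillary bud 3. Over all leaf-side ACRs the shares in these lists were 41.1%, 14.2%, 12.2% and 20.4%, and nothing particular to the run is read from so few regions.

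The windows with the largest excess of bud-side ACRs were near chromosome ends. They were 2D:13000001-14000000 with 7 leaf-side and 61 bud-side ACRs, 4D:509000001-510000000 with 9 and 62, and 6D:456000001-457000000 with 5 and 44. The longest bud-side runs were looser than the leaf-side runs. The run of 24 regions at 3B:144809246-146300208 spanned 1491 kb and recurred in vernalized axillary bud at 9 regions. The runs of 18 at 3A:656123235-657193884 and 3D:420486656-422035235 recurred there at 16 and 12 regions, and in vernalized leaf at 2 and 1. In vernalized shoot apex these 3A and 3D runs recurred at 17 and 8 regions, and in shoot apex at 5 and 1. Over all bud-side ACRs the shares were 61.8% in vernalized axillary bud, 46.5% in vernalized shoot apex, 29.1% in shoot apex and 10.9% in vernalized leaf. Nothing particular to the runs is read from so few regions.

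The remaining 4 lists, which took no part in defining the classes, showed how far each class was found again. These came from vernalized leaf, vernalized axillary bud and vernalized shoot apex, taken after 1 month at 4°C and 1 day back in the greenhouse, and from unvernalized shoot apex. Leaf-side ACRs were overlapped most often in vernalized leaf, at 41.1% (40.6% to 41.7%), then in vernalized axillary bud (20.4%), shoot apex (14.2%) and vernalized shoot apex (12.2%). Bud-side ACRs were overlapped most often in vernalized axillary bud, at 61.8% (61.4% to 62.1%), then in vernalized shoot apex (46.5%), shoot apex (29.1%) and vernalized leaf (10.9%). Over all leaf ACRs the shares were 49.99% in vernalized leaf, 75.8% in vernalized axillary bud, 55.4% in shoot apex and 64.6% in vernalized shoot apex. Over all axillary bud ACRs they were 76.4% in vernalized axillary bud, 63.6% in vernalized shoot apex, 48.7% in shoot apex and 33.8% in vernalized leaf. Leaf-side ACRs were thus overlapped most often in another list than leaf ACRs as a whole. The class rule bears on this order, since it took out every leaf ACR overlapped in axillary bud. Of the axillary bud ACRs, 76.4% recurred in vernalized axillary bud, so the changed order is not read as a result. Bud-side ACRs had the same order of lists as axillary bud ACRs as a whole, at a lower level in each. The lists differ in size, covering 71.6 Mb in vernalized leaf, 143.3 Mb in vernalized axillary bud, 88.5 Mb in shoot apex and 107.7 Mb in vernalized shoot apex, and a longer list can be hit more often. Widths that untrimmed bins can give made up 42.6% of vernalized leaf and 95.6% of vernalized axillary bud ACRs. In shoot apex they made up 12.9% and in vernalized shoot apex 77.6%. The part of this property in the recurrence was not tested.

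ACRs were also counted by the vernalized leaf and vernalized axillary bud lists together. Of the leaf-side ACRs, 8818 (31.8%) were overlapped in vernalized leaf alone and 3071 (11.1%) in vernalized axillary bud alone, a ratio of 2.87. Of the bud-side ACRs, 48310 (53.9%) were overlapped in vernalized axillary bud alone and 2779 (3.10%) in vernalized leaf alone, a ratio of 17.38. All axillary bud ACRs also leaned to vernalized axillary bud (76.4%) over vernalized leaf (33.8%), so the ratio of 17.38 is not read as particular to the bud-side class. All leaf ACRs leaned the same way (75.8% over 49.99%), opposite to the leaf-side ACRs. Leaf-side ACRs by rule have no overlap in axillary bud, so the ratio of 2.87 is not read as a result either. Neither list overlapped 47.8% of leaf-side and 35.1% of bud-side ACRs. In none of the 4 lists were 11970 leaf-side ACRs (43.2%) and 23710 bud-side ACRs (26.5%), and these were narrow, with medians of 256 and 250 bp. Common ACRs were found again far more often, with 3.89% of those in leaf and 3.32% of those in axillary bud in none of the lists.

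**Figure D5:**
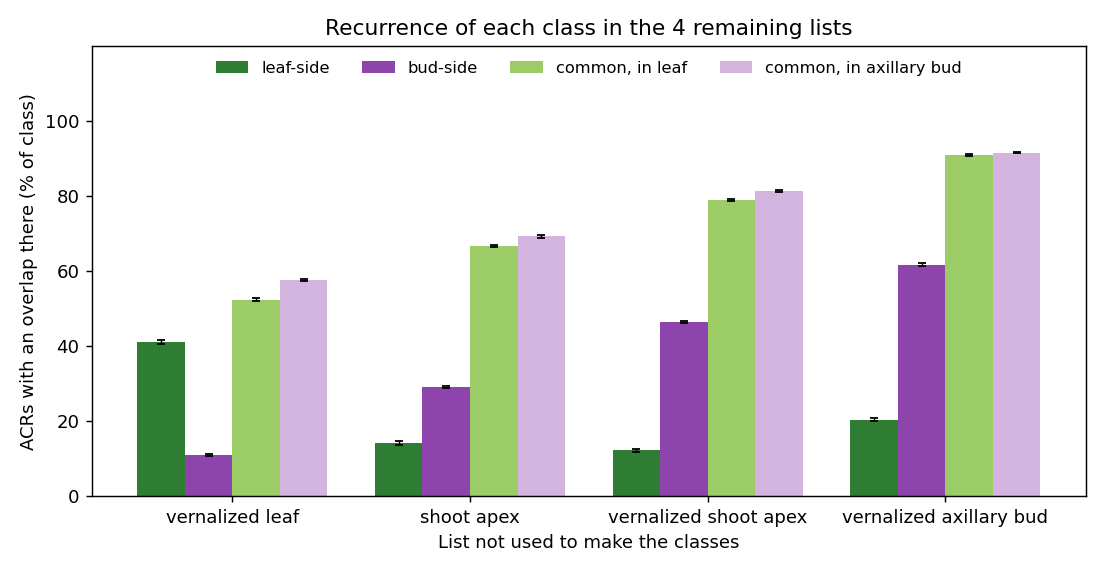
Share of leaf-side, bud-side and common ACRs overlapped by at least 1 bp in each of the 4 remaining lists, with 95% Wilson intervals. Leaf-side ACRs peak in vernalized leaf (41.1%) and bud-side ACRs in vernalized axillary bud (61.8%), where common ACRs in leaf (91.0%) and in axillary bud (91.6%) also peak.

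Recurrence was higher for wide ACRs. Of leaf-side ACRs up to 250 bp, 26.7% were overlapped in vernalized leaf, and of those above 2000 bp 88.3%. Of bud-side ACRs the same widths gave 43.8% and 95.3% in vernalized axillary bud. Recurrence also differed by position, in the bud and apex lists more than in vernalized leaf. Leaf-side ACRs were overlapped in shoot apex at 21.7% in the outer part of chromosomes and 9.12% in the rest, but in vernalized leaf at 42.9% and 39.97%. In vernalized axillary bud these shares were 26.6% and 16.3%, and in vernalized shoot apex 15.5% and 9.98%. Bud-side ACRs were overlapped in shoot apex at 41.3% in the outer part and 22.1% in the rest. For them vernalized axillary bud gave 69.9% and 57.1%, vernalized shoot apex 54.9% and 41.7%, and vernalized leaf 10.2% and 11.3%. Common ACRs in leaf had the same tendency in shoot apex, at 77.4% and 61.0%.

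The widest tissue-side ACRs more than 1000 bp from any ACR of the other tissue were examined one by one, out of 21106 leaf-side (76.1%) and 74634 bud-side (83.3%) candidates. The widest leaf-side ACR, 4A:738731750-738740312, spanned 8563 bp, of which vernalized leaf covered 8309 bp and the bud and apex lists nothing. The ACR at 5D:159642266-159648169 (5904 bp) had the same pattern, with 5703 bp covered in vernalized leaf and nothing elsewhere. The ACR at 1D:408199678-408206290 (6613 bp) was covered in full in vernalized leaf, but also over 6273 bp in vernalized axillary bud, 3750 bp in shoot apex and 6203 bp in vernalized shoot apex.

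The widest bud-side ACRs were 3D:576564798-576572047 (7250 bp), 2A:754179031-754185780 (6750 bp) and 6B:485538001-485544350 (6350 bp). Vernalized axillary bud covered 3790, 1700 and 1650 bp of them, vernalized shoot apex 5407, 947 and 978 bp, and shoot apex 1256, 550 and 0 bp. Vernalized leaf covered none of the 3D and 2A sites and 327 bp of the 6B site. These 3 bud-side sites were therefore found again over part of their length, whereas the 3 leaf-side sites were found again nearly whole in vernalized leaf. The sites were picked for their width, and nothing about the classes is read from 3 sites each. Nearby genes were not analysed here, for want of an annotation of this build.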

How the data were processed

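ATAC-seq of wheat leaf and axillary bud was compared from the lists of ACRs deposited by the authors, 1 list per group. Per the study's methods, reads were trimmed with fastp 0.21.0, aligned to IWGSC RefSeq v1.0 with Bowtie2 2.3.5.1 (version from the submitters' processing notes), filtered with SAMtools 1.3.1 and freed of duplicates with Picard 2.16.0. Peaks were called with MACS2 2.2.6, cut into 150 bp bins in steps of 100 bp, filtered on Tn5 insertion density and merged when up to 200 bp apart, and peaks seen in input or chloroplast DNA were removed. The leaf list held closer neighbours and other widths than these steps alone would give, and how it was finished is unknown. The deposited values are chromosome, start and end positions, with no count, score or signal, so depth and precision per ACR are unknown. Whether replicates were pooled for a list is not given in the sources used here.

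ACRs sharing at least 1 bp were common. Chromosome length was taken as the span up to the last ACR end (14065.3 Mb in all). Python 3.11.15, numpy 2.4.6, scipy 1.17.1 and matplotlib 3.10.9 were used, and the functions were tested on simulated data. Shares carry 95% Wilson intervals. With 1 list per group no test between tissues was run. The sites named are the 3 widest tissue-side ACRs more than 1 kb from the other list and the 3 most unequal pairs each way. Also named are, per class, the 3 windows with the largest excess and the 3 longest runs, with ties going to the shorter span. Alternatives were a reciprocal overlap of 50%, a gap of 200 bp, a minimum width of 500 bp, lists of equal size, ACRs joined up to 1 kb apart, covered length and the outer 50 Mb. The comparison, classes and rules were chosen with earlier results of these data known.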

Additional observations from a re-analysis of the deposited data

How the results depend on the processing

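No paired analysis was possible because each group has 1 list, and for the same reason no replicate could be left out. Of 73 alternatives computed over 13 results, 42 moved and 31 did not, where a share or ratio moved when it left the 95% interval of the main value and a count when it changed by more than 1.5 times. By that wide limit counts that did not move still ran between 20495 and 35748 for leaf-side ACRs (main value 27737) and between 59866 and 134052 for bud-side ACRs (main value 89602). Values below are given leaf first where both tissues are named.

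Under a reciprocal overlap of 50%, 32.2% of leaf and 23.7% of axillary bud ACRs were common, 87367 ACRs were leaf-side, and the width ratio was 0.787. The outer share of leaf-side ACRs was 38.1%, bud-side regions were followed by a bud-side region in 48.9%, and recurrence in the vernalized list of the same tissue was 44.6% and 72.0%. Under this rule the excess of a following region of the same class ended for both tissues (0.960 and 0.959 times the share), by construction, since overlapping ACRs then count as neighbours. With a gap of 200 bp, 79.7% and 49.8% were common and 32.1% of leaf-side regions were followed by a leaf-side region.

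With ACRs of at least 500 bp, 83.0% and 39.8% were common, 9426 were leaf-side, the width ratio was 0.652, the bud-side share on D was 33.7% and that in the outer part 35.7%. Followed by their own class were 26.6% and 60.8%, and recurrence was 67.6% and 85.4%. With the axillary bud list at the size of the leaf list, 72.3% and 60.04% were common, 51508 were bud-side, the ratio was 0.556 and the outer share of leaf-side ACRs 38.7%. Followed by their own class were 38.0% and 38.1%, and recurrence was 40.4% and 72.5%. With ACRs joined up to 1 kb apart, 79.8% and 55.6% were common, the ratio was 0.577, and bud-side shares were 33.9% on D and 33.9% in the outer part. Followed by their own class were 24.3% and 42.7%, and bud-side recurrence was 65.6%.

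By covered length the outer shares were 42.2% and 37.5%, and in the outer 50 Mb they were 32.8% and 28.8%. Without the 5B window, an alternative chosen after seeing the data, leaf-side regions were followed by a leaf-side region in 31.2%. The order of leaf-side over bud-side in the outer part held under each alternative run. Depth could not be matched, since the lists hold no counts.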
